A study of Sus scrofa with 8 samples.

Results

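OR51E1, OR2C3, OR4K17 and OR6N2 are olfactory receptor (OR) genes, and in the olfactory epithelium (OE) of sows they were the 4 genes with an OR symbol that had more than 100 sequencing counts summed over the 8 RNA-seq libraries. They were chosen by that sum alone, out of 76 genes with an OR symbol among the 22516 genes of the files. Their levels are therefore given as a description, and the comparison of sprayed with unsprayed sows, which the rule did not use, is the part that was tested. The genes and the tests were, however, chosen with earlier results of these data known. The Ensembl identifiers of the 4 genes are ENSSSCG00000014766 (OR51E1), ENSSSCG00000041930 (OR2C3), ENSSSCG00000002187 (OR4K17) and ENSSSCG00000006423 (OR6N2). Genes without a symbol in the name table were not counted, so that OR genes among them were not examined.

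The libraries came from 4 sows, offspring of Landrace sires and Rongchang dams, all 8 months old and in estrus. The nasal cavity of 2 sows was sprayed with Boarmate, a commercial product with the boar pheromone androstenone as its main active ingredient, and 2 control sows received no solution. The controls thus lacked the spraying itself as well as the androstenone, and these cannot be told apart. The OE of the left and the right side was taken from each sow 30 min after spraying and sequenced as 2 libraries, which gave 4 libraries per group. Which libraries share a sow is not in the labels, so p-values over libraries measure the spread between libraries and not between animals.

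An OR is a G protein-coupled receptor in the cilia of olfactory sensory neurons. Each mature neuron expresses a single OR gene, so that in a piece of tissue the mRNA of any one receptor comes from a small fraction of the neurons. An activated OR signals through the G protein GNAL and adenylyl cyclase ADCY3 to the cyclic nucleotide-gated channel of CNGA2, CNGA4 and CNGB1 and the chloride channel ANO2, while RTP1 and RTP2 carry receptors to the cell surface. Several OR genes are also transcribed outside the nose. OR51E1, a class I receptor of carboxylic acids such as isovaleric acid, is also known from prostate and other tissues, whereas the families of OR2C3, OR4K17 and OR6N2 belong to class II.

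The question of the study was which receptors respond to androstenone, on the premise that a stimulated receptor falls in mRNA. Counts summed to 4178330 in control 1 and to 81580146 to 100685566 in the other 7 libraries. The study's sequencing summary lists as many reads for a library it names control 1 as for other libraries. If that is the same library, the small total is one of counted reads and not of sequencing. The cause was not tested. A gene at 0 could therefore have been as high as 0.718 CPM (counts per 1e6 counts of the library, from 3 counts) in control 1, and 0.0298 to 0.0368 CPM elsewhere. Control 4 also stood apart, with a scaling factor (TMM, which corrects for a few genes taking many of the counts) of 0.687 against 0.9687 to 1.165 in the others. CPM below are scaled by this factor unless the library total is named.

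The tissue markers of olfactory neurons were uneven. In TPM, the deposited level scaled for transcript length and library, RTP2 was listed at 0 in all 8 libraries. RTP1 reached at most 0.038 TPM and LHX2, a regulator needed for OR expression, at most 0.095 TPM, with 0 in 3 libraries. GNG13, the G protein subunit paired with GNAL, lay between 0.0805 and 0.493 TPM. By contrast GNAL was at 0.497 to 8.87 TPM, ADCY3 at no less than 6.25 TPM, CNGA2 at 0.279 to 5.01 TPM, ANO2 at 3.18 to 50.4 TPM and STOML3, a protein of olfactory cilia, at 34.9 to 190.0 TPM. OMP, the classical marker of mature neurons, and CNGB1 were without a matching identifier and are not analysed here. Transduction genes, some of which other nasal cells also express, were thus present, while the receptor chaperones RTP1 and RTP2 and the regulator LHX2 were at or near 0. Other genes of receptor trafficking and receptor choice were higher. REEP1 was at 0.725 to 3.79 TPM, LDB1 at 52.0 to 111 TPM and KDM1A at 25.5 to 54.5 TPM. EBF1 reached 12.2 TPM, EBF4 8.88 TPM and EBF3 5.5 TPM, whereas EBF2 reached at most 0.387 TPM and EMX2 at most 0.423 TPM.

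**Figure D1:**
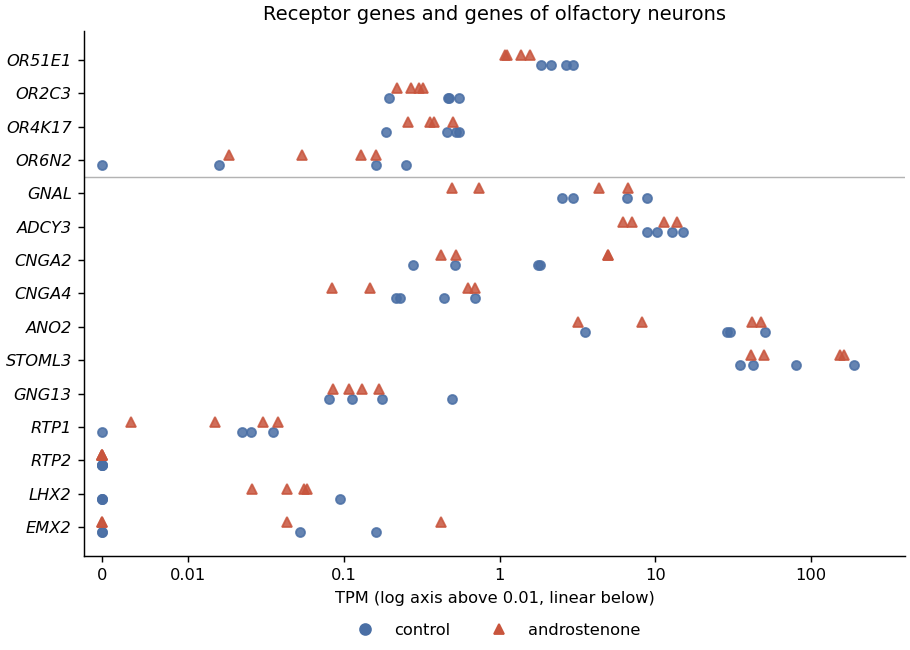
Level in TPM (log axis above 0.01, linear below) of the 4 receptor genes and of 11 genes of olfactory neurons, with 1 point per library, control as circles and androstenone as triangles. OR51E1 lay between 1.09 and 2.95 TPM, above RTP1, RTP2 and LHX2 in every library and below ADCY3 in every library.

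OR51E1 was the most expressed of the 4 genes. Its counts were 32, 377, 590 and 410 in controls 1 to 4 and 355, 274, 259 and 390 in androstenone libraries 1 to 4, a sum of 2687. Its mean over the 8 libraries was 1.84 TPM, a level that 37.0% of the 22516 genes did not exceed. In TPM it was the highest of the 4 in 8 of 8 libraries, and its lowest library (1.09 TPM) stood above the highest library of any of the other 3 genes (0.548 TPM).

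OR2C3 had the second largest sum, 1377 counts, made of 13, 287, 268 and 96 counts in the controls and 202, 173, 132 and 206 in the androstenone libraries. OR4K17 followed with 916 counts, from 9, 138, 169 and 53 in the controls and 144, 185, 87 and 131 in the androstenone libraries. Per transcript length their order turned, with a mean of 0.350 TPM for OR2C3 (0.194 to 0.547) and 0.404 TPM for OR4K17 (0.187 to 0.548), and OR2C3 was the higher of the pair in only 2 libraries. The ranges of these neighbours overlapped almost entirely. Within single libraries OR2C3 was at 0.531 to 1.18 times the TPM of OR4K17, and the order of the pair was not tested.

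OR6N2 was the lowest of the 4 in every library. It had 0, 44, 3 and 27 counts in the controls and 12, 4, 26 and 35 in the androstenone libraries, 151 in all. Its mean was 0.0988 TPM. The 0 in control 1 allowed up to 0.718 CPM of the library total, above all other libraries of this gene (0.0322 to 0.539 CPM of the library total), so that absence could not be told from the small count total there. The exact 95% interval from its count was 0 to 0.883 CPM. Such limits and intervals hold for counting error alone, as PCR copies cannot be told from separate molecules.

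The rule of 100 counts fell in a gap between OR genes. Just inside it was OR6N2, and just outside were OR52W1 with 70 counts, OR1I1 with 50 and OR3A1 with 48. Of the 72 other OR genes, 22 had no count in any library and 50 had counts, with a median sum of 9. Among these 50, 17 were found in 1 library only and 3 (OR52W1, OR1I1 and OR6J1) in all 8, while OR51E1, OR2C3 and OR4K17 were found in 8 and OR6N2 in 7.

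**Figure D2:**
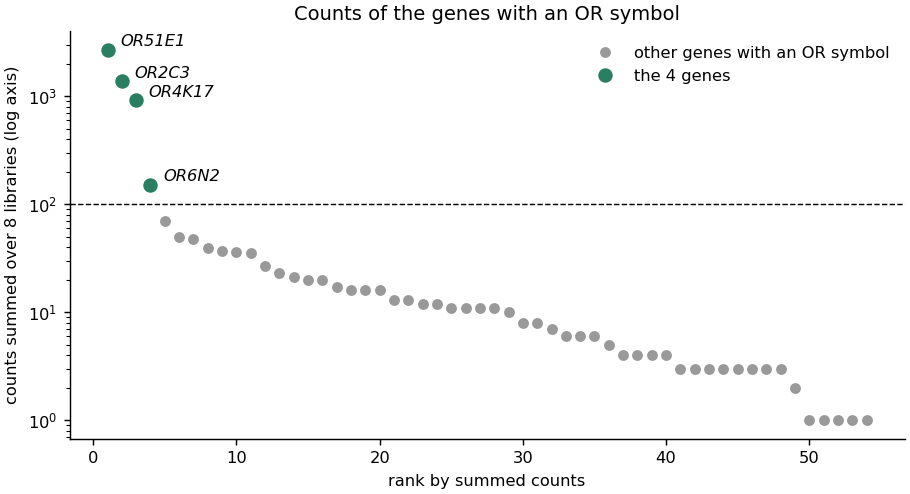
Counts summed over the 8 libraries (log axis) for the 54 genes with an OR symbol and at least 1 count, by rank, with the limit of 100 counts as a dashed line. The 4 genes chosen by this sum lie above the line, from 2687 counts for OR51E1 to 151 for OR6N2, and the next gene has 70.

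The large counts of the 4 genes went with a long effective transcript length. The number of counts per TPM, which grows with the effective transcript length the authors' quantification assigned to a gene, was 4.85 times the median of the 50 other OR genes in OR51E1, 12.4 times in OR2C3, 7.07 times in OR4K17 and 4.18 times in OR6N2. Of the other OR genes, 46 of 50 lay between 0.9 and 1.1 times that median, and 1 exceeded OR6N2. The median over all genes was 3.22 times it. At equal TPM a gene with a larger factor gives more counts, and which exons the transcripts of the 4 genes hold was not examined. Per length, 6 other OR genes had a higher mean TPM than OR6N2, the highest being OR52W1 with 0.239 TPM. OR51E1, OR4K17 and OR2C3 were the 3 OR genes of highest mean TPM.

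The 4 genes held most of the counts of all genes with an OR symbol. Their share was 80.6%, 76.3%, 93.2% and 92.4% in controls 1 to 4 and 91.3%, 92.4%, 88.7% and 87.9% in the androstenone libraries. Control 2, with 76.3% (exact 95% interval 73.7 to 78.8), was the lowest, and control 1 rested on 67 OR counts (interval 69.1 to 89.2). In TPM the same share was 33.8% to 69.9%. The other OR genes together were highest in control 2, at 3.22 CPM of the library total (263 counts, exact 95% interval 2.85 to 3.64). Control 1 was at 3.11 CPM from only 13 counts (interval 1.66 to 5.32), and the other 6 libraries were at 0.496 to 1.15 CPM. The share of OR51E1 alone ran from 34.0% in control 2 to 64.7% in control 4.

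In the comparison of androstenone with control, OR51E1 was lower in the sprayed sows and the other 3 genes overlapped between the groups. None of the 4 genes passed the cutoff of the study (edgeR, p below 0.05 before adjustment and a log2 fold change of at least 1 in size), which 4.38% of the 21318 genes tested passed downward and 2.04% upward. After Benjamini-Hochberg adjustment over all genes, 0.0% passed with edgeR's quasi-likelihood test, and 2415 genes had an unadjusted p under 0.05. The likelihood ratio test called 200 genes after adjustment, edgeR's exact test 157, DESeq2 670 and limma voom 0.

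OR51E1 stood at 6.57, 4.11, 6.16 and 6.17 CPM in controls 1 to 4 and at 3.72, 2.81, 2.88 and 3.88 CPM in androstenone libraries 1 to 4. All 4 androstenone libraries were below all 4 controls, with control 2 nearest to them. The means were 5.75 ± 1.11 and 3.32 ± 0.557 CPM (SD, n = 4 each), 1.73-fold apart, with p = 0.0286 in the two-sided exact permutation test, the smallest its 70 assignments allow. Such a complete separation downward occurred in 2.64% of all genes tested.

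In TPM the groups of OR51E1 were also apart, at 2.95, 1.84, 2.69 and 2.13 in the controls and 1.37, 1.09, 1.11 and 1.56 in the androstenone libraries (2.40 ± 0.504 and 1.28 ± 0.224, 1.87-fold, exact permutation p = 0.0286). On this scale 3.59% of genes separated in the same way. Scaled to the library total alone, control 4 (4.24 CPM) fell just below androstenone 4 (4.29 CPM), and the means were 5.71 ± 1.59 and 3.4 ± 0.702 with an exact permutation p of 0.0571. In CPM, the separation of OR51E1 thus depended on scaling by the TMM factors.

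In the fit across all genes, the log2 fold change of OR51E1 was -0.79 (SE 0.25, approximate 95% interval -1.27 to -0.30). This interval and those of the other genes below use the normal quantile, and are narrower than intervals matching the quasi-likelihood test. The edgeR p of OR51E1 was below the 0.05 threshold before adjustment, as for 6.24% of all genes in the same direction, and its adjusted p was 0.405. DESeq2 gave an adjusted p of 0.0367, past a threshold that 1.89% of the genes it adjusted passed downward. Over all alternatives, with all 9 assignments of libraries to sows, the adjusted p ran from 0.0367 (DESeq2) to 0.9995 (edgeR on sums per sow). When counts were summed per sow, only 2 of the 9 possible assignments of libraries to sows kept an unadjusted edgeR p below 0.05.

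OR2C3 was at 2.67, 3.13, 2.80 and 1.44 CPM in the controls and 2.12, 1.77, 1.47 and 2.05 CPM in the androstenone libraries. The first 3 controls were above all androstenone libraries and control 4 was below them, so the groups overlapped through 1 library. The means of 2.51 ± 0.738 and 1.85 ± 0.296 CPM (n = 4 each) gave an exact permutation p of 0.171. Its fitted log2 fold change was -0.44 (SE 0.31, interval -1.04 to 0.16, adjusted edgeR p 0.593).

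OR4K17 was at 1.85, 1.51, 1.76 and 0.797 CPM in the controls and 1.51, 1.90, 0.967 and 1.30 CPM in the androstenone libraries. The highest library belonged to the androstenone group and the lowest to the controls. The means differed by less than the spread, with 1.48 ± 0.477 against 1.42 ± 0.389 CPM (n = 4 each, exact permutation p = 0.886), and the fitted log2 fold change was -0.03 (SE 0.36, interval -0.73 to 0.67, adjusted edgeR p 0.979). The interval leaves room for a change of either sign.

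OR6N2 was at 0, 0.48, 0.0313 and 0.406 CPM in the controls and 0.126, 0.0410, 0.289 and 0.348 CPM in the androstenone libraries. Each group held libraries near 0 and libraries at or above 0.289 CPM, and the groups overlapped fully. Means of 0.229 ± 0.249 and 0.201 ± 0.142 CPM (n = 4 each) gave an exact permutation p of 0.829. The log2 fold change of -0.41 had an SE of 0.94 and an interval from -2.26 to 1.44 (adjusted edgeR p 0.876), so that even a change past the cutoff was not detectable at these counts and this spread.

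**Figure D3:**
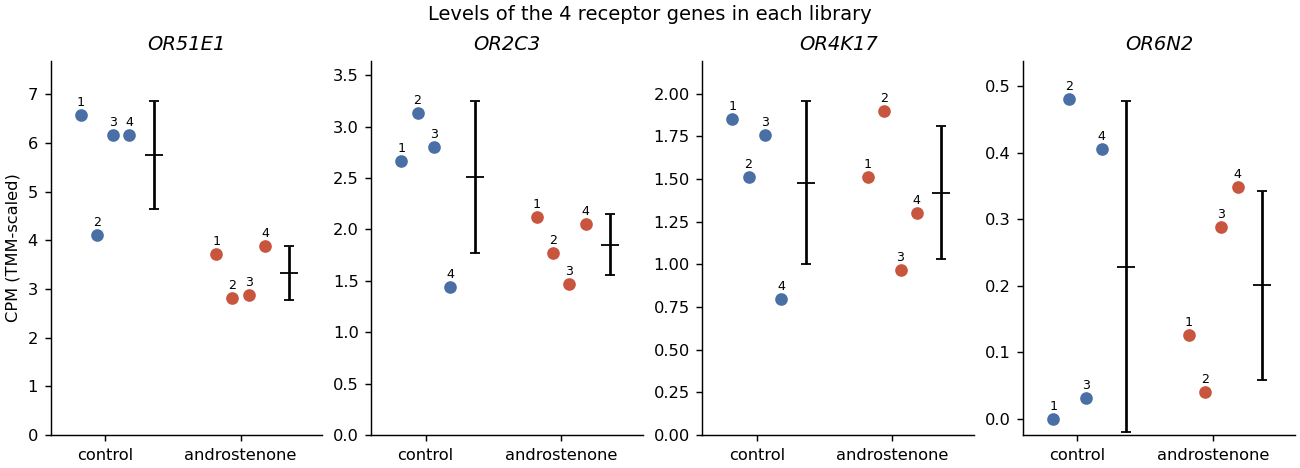
CPM (TMM-scaled) of OR51E1, OR2C3, OR4K17 and OR6N2 in each library, with numbers marking the library and bars giving the mean and SD of the 4 libraries per group. Axes start at 0, except that of OR6N2, which starts just below 0. The androstenone points of OR51E1 (2.81 to 3.88 CPM) all lie below the control points (4.11 to 6.57 CPM), while the groups of the other 3 genes overlap.

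The 4 genes differed in how much they varied. Over the 8 libraries the coefficient of variation of CPM was 33.8% for OR51E1, 28.8% for OR2C3 and 27.9% for OR4K17, but 87.5% for OR6N2. The biological coefficient of variation estimated by edgeR within the groups was 0.328, 0.363 and 0.393 for the first 3 genes, below the trend for genes of their abundance (0.545, 0.556 and 0.570). For OR6N2 it was 0.898, above its trend of 0.688.

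Each receptor was also divided by the summed counts of the olfactory transduction list in the same library, a ratio that does not depend on library scaling. OR51E1 had 17.9, 10.2, 14.5 and 17.1 counts per 1000 list counts in the controls and 9.97, 8.11, 6.55 and 10.6 in the androstenone libraries, with overlap through control 2 and androstenone 4. The mean log2 difference was -0.76 (exact permutation p = 0.0571). For OR2C3 it was -0.38 (p = 0.257 in the same exact permutation test), and for OR4K17 and OR6N2 -0.02 and -0.03 (exact permutation p = 0.914 and 1.0). With the counts of the other OR genes as denominator all 4 differences turned positive, at 0.20 for OR51E1, 0.58 for OR2C3, 0.94 for OR4K17 and 0.92 for OR6N2 (exact permutation p = 0.143 to 0.8). The transduction denominator is no plain measure of neurons. It was mostly ANO2 and STOML3, which made up 57.0% to 81.6% of its counts and ran in opposite directions. STOML3 was at 224, 216 and 215 CPM in control 3 and androstenone 1 and 2, the libraries richest in ciliated cell genes, and at 48.8 to 92.9 CPM elsewhere. ANO2 was at 19.0, 52.4 and 19.3 CPM in those 3 libraries and at 159 to 292 CPM elsewhere. In bulk tissue, fewer receptor neurons and less RNA per neuron cannot be told apart.

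None of the pathway genes passed the cutoff. Of the 10 olfactory transduction genes tested, 0 were called in either direction, 8 had a fitted change below 0, and the median log2 fold change was -0.18 against -0.02 over all genes. Summed levels of the list were 361 to 426 CPM in the controls and 346 to 439 CPM in the androstenone libraries. Its most counted genes, ANO2 and STOML3, had log2 fold changes of -0.07 (SE 0.92) and 0.40 (SE 0.64). Among the receptor trafficking genes 0 of 2 were called, and among the 8 regulators of receptor choice, with the EBF factors, LDB1 and the demethylase KDM1A, 0 were called. Of 7 precursor genes 1 was called lower, against 4.38% of all genes, namely GAP43, a growth cone protein, with a log2 fold change of -1.05 (SE 0.42, adjusted edgeR p 0.421).

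Among the 50 other OR genes with counts, 3 were called lower (6.0%, against 4.38% of all genes) and 1 higher (2.0%, against 2.04%). OR10Z1 had 6 counts in the controls and 0 in the androstenone libraries, OR2D2 had 11 and 1, and OR12D3 had 19 and 1, of which 18 were in control 2. The gene called higher, OR6A2, had 1 control count and 26, 7, 0 and 3 counts in androstenone libraries 1 to 4. These 4 were named after their values were seen. All rest on few counts, and none passed after adjustment (adjusted edgeR p 0.416 to 0.417). The median log2 fold change of the 50 genes was -1.11, with 34 fitted lower. Of them, 10 had 0 counts in every androstenone library. Others, such as OR51C1P and OR6T1 with 4 counts each, had 0 counts in every control. At such 0 values the size of a fitted fold change depends on the prior count. Control 2 alone held 263 counts of the other OR genes, against 13 to 105 in each other library.

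Other tissue lists also held genes called between the groups, and these values stand beside the lower level of OR51E1. The summed levels of the bone, cartilage and fibroblast lists overlapped between the groups, and each was highest in control 4. For comparison, 4.38% of all genes were called lower and 2.04% higher. Of the bone genes 8 of 8 were called lower, with summed levels of 234 to 11800 CPM in the controls (11800 in control 4) and 91.0 to 454 CPM in the androstenone libraries. Of the cartilage genes 5 of 6 were called lower, with 66.1 to 3170 against 24.1 to 107 CPM, and of the fibroblast genes 3 of 7. Of the neutrophil genes 3 of 3 were called higher, with summed levels of 10.6 to 49.9 CPM in the controls and 92.1 to 207 CPM in the androstenone libraries. Without control 4 the log2 fold change of OR51E1 was -0.75. The part of these tissue differences in the result was not tested.

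Across the libraries OR6N2 and OR4K17 ran in opposite order along the content of respiratory ciliated cells. The summed CPM of 8 ciliated cell genes (among them the cilium regulator FOXJ1 and the axonemal dyneins DNAH5 and DNAH9) was 3030 in control 3, 2570 in androstenone 2, 2330 in androstenone 1, 1330 in control 1, 763 in androstenone 3, 649 in androstenone 4, 647 in control 4 and 600 in control 2. In that order OR6N2 was at 0.0313, 0.0410, 0.126, 0, 0.289, 0.348, 0.406 and 0.48 CPM. Apart from control 1, whose 0 allowed up to 0.718 CPM, its TMM-scaled level thus rose at each step as the ciliated genes fell. Some of these steps were within counting error, such as that from 3 counts in control 3 to 4 counts in androstenone 2. With OR6N2 scaled to the library total, control 4 (0.279 CPM) was below androstenone 4 (0.385 CPM), so the order of single steps depended on the scaling. OR4K17 in the same order was at 1.76, 1.90, 1.51, 1.85, 0.967, 1.30, 0.797 and 1.51 CPM, higher in the first 4 libraries than in the next 3 and equal to androstenone 1 in the last. OR51E1 and OR2C3 showed no such order, the former being at 6.16 CPM in the first library and 6.17 in the seventh. Each group had 2 libraries among the first 4 and 2 among the last 4 of this order.

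**Figure D4:**
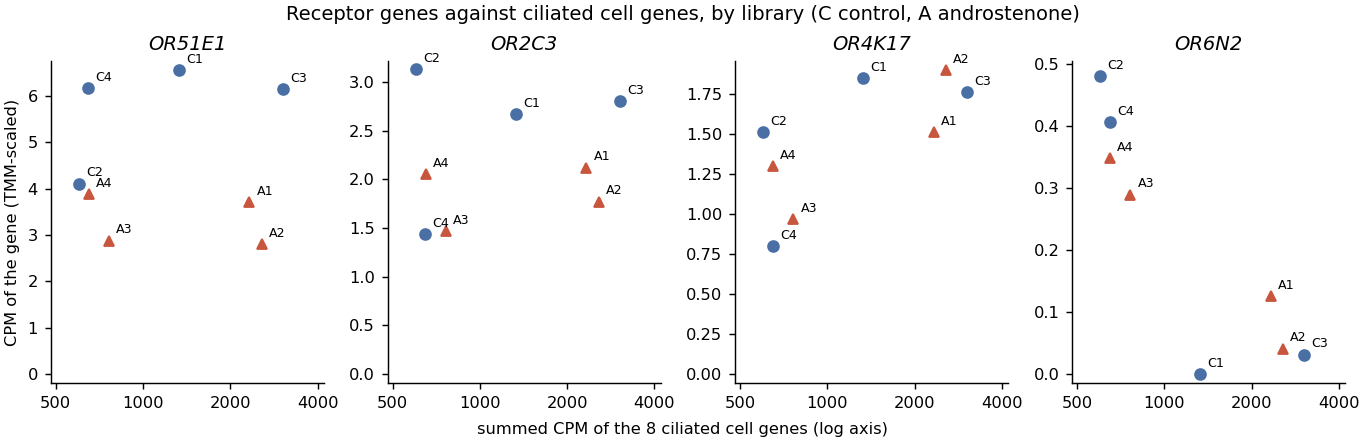
CPM (TMM-scaled) of each receptor gene against the summed CPM of 8 ciliated cell genes (log axis), with 1 labelled point per library, control as circles and androstenone as triangles. OR6N2 falls from 0.48 CPM in control 2 to 0.0313 CPM in control 3 as the ciliated sum rises from 600 to 3030 CPM, and OR51E1 shows no trend along it.

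Likeness to the 22 cell type lists was measured as Pearson's r of log2 CPM over the 8 libraries. It is given with no p, because the libraries share 4 sows, libraries of one sow share their tissue, and the points lie in separate clusters along the ciliated genes that are too small to be examined alone. OR6N2 went with smooth muscle (r = 0.67, 0.92 without control 1) and endothelium (r = 0.68, 0.95 without control 1), with the ciliated list at -0.76 and -0.96. Its highest value was 0.84, with the receptor trafficking list, of which REEP1, a protein of the endoplasmic reticulum that many cells express, gave 97.7% of the counts. With the receptor choice regulators, whose counts were mostly LDB1 (52.4%) and KDM1A (33.3%), it was 0.78. OR4K17 ran against macrophages (r = -0.92), receptor choice regulators (r = -0.88), receptor trafficking (r = -0.87), erythroid cells (r = -0.86) and endothelium (r = -0.78).

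For OR51E1 the value with the olfactory transduction list was -0.03, its highest was 0.60 with melanocytes and its lowest -0.66 with neutrophils. OR2C3 had its highest values with lymphocytes (0.59), olfactory neuron precursors and glia (0.57 each), the 3 being close together, and its lowest with macrophages (-0.62). These leading lists were not stable. By Spearman's rho OR51E1 was most like neuroendocrine cells (0.60, melanocytes 0.40) and OR2C3 most like the precursors (0.71, lymphocytes 0.55). Without control 4 the value of OR2C3 with lymphocytes was 0.384. Between the receptors themselves r was 0.71 for OR2C3 and OR4K17, -0.74 for OR4K17 and OR6N2, and 0.39 for OR51E1 and OR2C3. None of the 4 genes had an r above 0.17 with the olfactory transduction list over the 8 libraries (OR2C3 0.26 without control 1). The sum of that list was mostly ANO2 and STOML3, which ran in opposite directions. A low r with the sum therefore does not tell how a receptor went with single transduction genes.

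**Figure D5:**
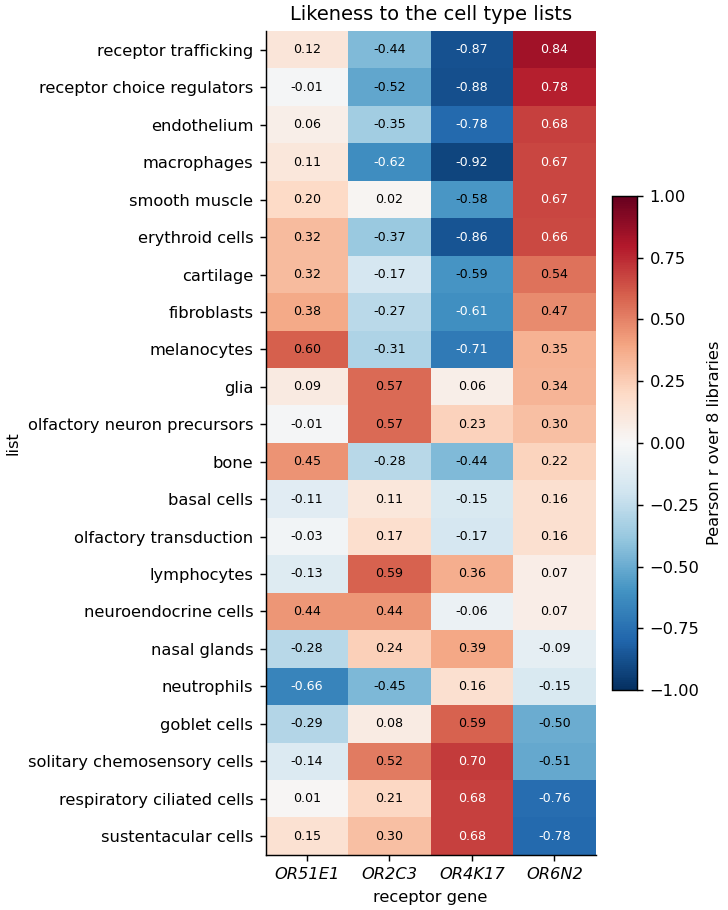
Pearson's r over the 8 libraries between the log2 CPM of each receptor gene (columns) and the log2 summed CPM of each of 22 cell type lists (rows), printed in each cell and coloured from -1 to 1. The columns of OR4K17 and OR6N2 run in opposite directions, with -0.92 and 0.67 for macrophages and 0.68 and -0.76 for respiratory ciliated cells.

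The single genes nearest to each receptor, out of 14543 genes with a symbol that passed a filter on low counts, were found by the same r. For OR51E1 they were RSRC2 (r = 0.976), the histone demethylase PHF8 (0.941) and the myosin light chain MYL3 (0.940). RSRC2 was at 85.3 to 94.4 CPM in the controls and 75.8 to 82.5 CPM in the androstenone libraries, without overlap. It was picked for its likeness to OR51E1, whose groups do not overlap either, so this is no separate result. Such a separation downward occurred in 2.64% of all genes tested. For OR2C3 the nearest were the macrophage elastase MMP12 (0.945) and the aromatic amino acid transporter SLC16A10 (0.941). For OR4K17 they were RGS16, a regulator of G protein signalling (0.965), FBXO24 (0.964) and DPPA5 (0.961).

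For OR6N2 the nearest gene was SCN3A, a neuronal voltage-gated sodium channel subunit, with r = 0.986. SCN3A was at 0, 0.895, 0.0835 and 0.977 CPM in the controls and 0.199, 0.0718, 0.844 and 1.11 CPM in the androstenone libraries, with the same 0 in control 1 as OR6N2. Without control 1 it ranked only 37th by r with OR6N2, and CARM1 (0.963) and SLC51B (0.956), next in order over 8 libraries, ranked 363rd and 394th. For the other 3 receptors, the nearest genes named here remained within the first 9 when control 1 was left out. With 14543 genes and 8 libraries, high values of r occur in any case, and 8 genes reached 0.9 for OR51E1, 8 for OR2C3, 30 for OR4K17 and 34 for OR6N2.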

How the data were processed

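Reads were filtered by the authors with fastp (0.23.1), and kallisto (0.48.0) assigned them to the transcripts of the Sscrofa11.1 build in Ensembl 108. They deposited 1 estimated count and 1 TPM value per gene and library for 22516 genes. The deposited estimated counts equal TPM times 1 factor per gene and 1 factor per library (largest relative deviation 2.83e-08 over 17773 genes above 0.01 TPM in all libraries). Transcript length was thus averaged over libraries, and the 2 kinds of values are not independent. The tool the authors used to sum transcripts to genes was not stated in the sources used here. Symbols came from a name table that matched 15527 identifiers. No coordinates or sequences of the 4 genes were used here.

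Estimated counts were rounded, genes without any count were dropped, which left 21318, and groups were compared with edgeR 4.0.16 (TMM, quasi-likelihood test, group as the only term) in R 4.3.3. A gene is "called" where its unadjusted p was below 0.05 and its log2 fold change was 1 or more in size, the cutoff of the study. Single values were compared with two-sided exact permutation tests over 70 assignments (Python 3.11.15, scipy 1.17.1), on 3 scales per gene. These p-values are not adjusted for the number of genes and scales. Ratios to the transduction list used a pseudocount of 0.5 counts. Likeness used log2 CPM with a prior count of 2. Intervals of counts and shares are exact 95% Poisson or binomial intervals. The interval of a fold change is approximate, from the normal quantile and the SE of the fit. It is narrower than one matching the quasi-likelihood test. Precision was set by the 4178330 counts of control 1 and 81580146 to 100685566 counts elsewhere.

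The members, the 22 gene lists, the tests and the rule for named genes were chosen with earlier results of these data known. Named were the 4 genes, the 3 OR genes next in counts, the 3 genes of highest r with each receptor (1 of those of OR2C3 is not reported here), and genes of the lists. Alternatives were other normalizations (RLE, library totals), filters, unrounded counts, the likelihood ratio and exact tests of edgeR, DESeq2 1.42.0, limma 3.58.1 (voom, and on log2 TPM with pseudocounts of 0.1 and 1), a replicate block, sums per sow and each library left out. Of these fits, only the quasi-likelihood test of edgeR was tried on simulated data. The other edgeR tests, DESeq2 and limma were not. The other lists (sustentacular, goblet, basal, solitary chemosensory and neuroendocrine cells, nasal glands, smooth muscle, endothelium, glia, melanocytes, lymphocytes, macrophages, erythroid cells) had at most 1 gene called per direction.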

Additional observations from a re-analysis of the deposited data

Results flagged for a closer look

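One value stood apart from the rest of its group. OR51E1 was at 4.11 CPM in control 2, while the other controls were at 6.16, 6.17 and 6.57 CPM, so that the gap to the nearest library was 0.83 of the whole range of the group, against a limit of 0.829. Of the 26 groups of 4 values examined for the 4 genes, this was the 1 past the limit, and chance marks about 1 in 20. Control 2 also had the most counts of the other OR genes (3.22 CPM of the library total) and the lowest share held by the 4 genes (76.3%). Without control 2 the log2 fold change of OR51E1 was -0.92.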

How the results depend on the processing

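OR51E1 and OR2C3 kept a negative log2 fold change under all 24 alternatives each (-0.92 to -0.57 and -0.64 to -0.15), and neither passed the cutoff in any. OR51E1 ranged from -0.92 to -0.72 and OR2C3 from -0.64 to -0.30 when each library was left out in turn. OR4K17 became positive under limma voom (0.020), under the highest sum per sow (0.20) and without some libraries (-0.26 to 0.11). OR6N2 became positive under limma on log2(TPM + 0.1) (0.011), under the replicate block (0.077) and without control 2 (-0.84 to 0.13 over all libraries left out). The cause was not tested.

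Genes called numbered 1368, and 727 and 321 under limma on log2 TPM with pseudocounts of 0.1 and 1, 717 with a mean TPM of at least 0.1, 583 under the replicate block, 368 at the lowest sum per sow, and 867 to 2414 with 1 library left out (2414 without control 3, 867 and 881 without androstenone 1 and 2). The block changed no other call. Control and androstenone libraries of the same number came from different sows, so the numbers do not pair them (correlations of deviations -0.04, -0.50, -0.60 and 0.17).

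Per counts of the other OR genes in place of the transduction list, all 4 differences were positive: 0.20 for OR51E1, 0.58 for OR2C3, 0.94 for OR4K17 and 0.92 for OR6N2, none past the exact test. This change of denominator shifts all 4 genes by the same amount. With a library left out the ratios ran from -0.93 to -0.62, -0.59 to -0.20, -0.26 to 0.22 and -0.80 to 0.52 in the same order, and passed without control 2 for OR51E1 (exact permutation p = 0.0286) and without control 4 for OR2C3 (exact permutation p = 0.0286). The share held by the 4 genes was 88.2% of OR counts over all libraries and 52.3% in TPM (87.0% to 91.0% with a library left out). The set of OR genes by description was not run, since the table used gives none, OR genes near the members were not searched, and OR6N2 gave no value under the filter on mean TPM. The small count total of control 1 limits OR6N2 above all.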
